A study of Rhodotorula toruloides with 36 samples.

Results

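Strain BIS3 of the basidiomycete yeast Rhodosporidium toruloides was compared with its wild type (WT) at 18 h of culture, the exponential phase sample. BIS3 holds 10 copies of a cassette in which the promoter of the native GAPDH gene drives BIS, the α-bisabolene synthase of the conifer Abies grandis (P_GAPDH-BIS). The members of the comparison were all libraries that the labels give for the 2 strains at this time, 3 of BIS3 and 6 of WT, which is 9 of the 36 libraries of the series. Every strain has the IFO0880 background and was grown in SD medium, with glucose at 2% by the labels. The methods text differs from the labels in the glucose content and in the number of WT replicates, and the labels were followed. BIS18 (1 copy of the same cassette), BIS14 (7 copies) and GB2 (BIS3 with 6 further copies in which the ANT promoter drives BIS) had 3 libraries each and served as the neighbouring strains. Each engineered strain is 1 transformant with the cassettes inserted at random places, and no strain with a cassette that lacks BIS is among the libraries, so BIS itself, the resistance gene and the places of insertion cannot be told apart as sources of a difference. Nothing in the labels says whether replicates were separate cultures, and p-values measure only the spread between these libraries.

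α-Bisabolene is a sesquiterpene made from farnesyl diphosphate. Fungi build farnesyl diphosphate from acetyl-CoA by the mevalonate pathway and normally pass most of it on to ergosterol, the main sterol of their membranes. R. toruloides is an oleaginous yeast, in which acetyl-CoA is also the starting unit of abundant storage lipid, with ATP citrate lyase supplying acetyl-CoA in the cytosol. A terpene synthase placed in this yeast thus draws on an intermediate of the sterol pathway.

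Library totals were 1134992 to 2029181 counts in WT (median 1377426.5) and 1179884 to 1426725 in BIS3 (median 1229804). The count table lists transcripts by number. The 17 genes of the mevalonate, prenyl diphosphate, sterol and fatty acid lists were linked to transcripts by adding 128 to a protein number given in a supplement of the study, an offset found by matching fold changes there (it left a root mean square log2 difference of 0.0106, and the runner-up among 538 offsets left 0.559). Fold changes of these genes are therefore not independent of that supplement. Listed lengths equal the genomic span, introns included, so positions below are whole genes in the coordinates of the count table.

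BIS3 replicate 2 stood apart from the other BIS3 libraries. Its root mean square log2 difference over all transcripts tested was 0.576 from replicate 1 and 0.522 from replicate 3, whereas replicates 1 and 3 differed by 0.404. From the GB2 libraries replicate 2 differed by 0.588 to 0.601, while replicates 1 and 3 differed from them by 0.742 to 0.763. Results are given with and without this library where it matters. The WT libraries fell into 2 sets. In units of counting noise (the chi-square divided by its degrees of freedom), replicates 1 to 3 differed from one another by 1.14 to 2.0 and replicates 4 to 6 by 1.64 to 2.29. Libraries of different sets differed by 2.97 to 4.35. The labels give no reason for this, and all 6 were treated as 1 group.

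By mean level per unit length, BIS stood above every native transcript in BIS3. Its level in counts scaled to library total and length (FPKM) was 5167, 6565 and 6545 in the 3 BIS3 libraries (6092 ± 802, SD, n = 3), and 0.819 to 2.58 in WT (median 1.88). The BIS3 libraries lay far above every WT library, whose 3 to 9 counts give the background of the assay in a strain with no cassette. BIS took 1.27% (95% Wilson interval 1.25 to 1.29), 1.61% (1.59 to 1.63) and 1.61% (1.58 to 1.63) of the counts in BIS3 replicates 1, 2 and 3. The intervals cover counting error only. No native transcript reached the mean FPKM of BIS in BIS3, where the highest native mean was 3639 and the native median 22.3. Native lengths include introns, while BIS was added to the reference as a coding sequence, so native FPKM can be too low beside BIS. Nat, the nourseothricin resistance gene of the cassette, had 4415, 7600 and 4735 counts in the BIS3 libraries and 0 to 2 in WT. Per unit length Nat exceeded BIS in each BIS3 library, at 6496, 9248 and 6684 FPKM in replicates 1, 2 and 3. Hyg, the hygromycin resistance gene of the second cassette of GB2, had 0 counts in all 9 libraries, which leaves up to 3 counts open (1.48 to 2.64 CPM, counts scaled to library size), and was present in GB2 at 123 ± 7.67 FPKM. All 3 entries matched the strain labels.

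Across strains the BIS level followed the order of the copy numbers. BIS18, BIS14, BIS3 and GB2 held 399 ± 31.0, 3127 ± 515, 6092 ± 802 and 8309 ± 332 FPKM (mean ± SD, n = 3 each), and the libraries of neighbouring strains in this order did not overlap. Divided by the number of copies, BIS3 gave 517 to 656 FPKM per copy, above BIS18 (380 to 435), while the ranges of BIS14 (398 to 532) and of GB2 (499.9 to 541, with the promoters of both cassettes) overlapped that of BIS3. BIS was higher in BIS3 than in BIS14 by 1.08 ± 0.18 on the log2 scale (± SE, edgeR adjusted p = 0.0013) and differed from GB2 by -0.52 ± 0.17 (edgeR adjusted p = 0.030), a call lost without BIS3 replicate 1 (-0.41), GB2 replicate 2 (-0.52) or GB2 replicate 3 (-0.53).

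Of 7375 transcripts tested at 18 h, 2404 (32.6%) differed between BIS3 and WT at an adjusted p under 0.05 (edgeR quasi-likelihood test, Benjamini-Hochberg over all tested). In BIS3 1275 were higher (17.3%) and 1129 were lower (15.3%). Most changes were small: the median was 1.51-fold among the higher and 1.66-fold among the lower transcripts, and 528 (7.16%) reached 2-fold, 227 upward and 301 downward. Native transcripts changed at least 4-fold numbered 33 upward and 39 downward. The libraries of the 2 strains did not overlap for 1050 of the higher and 858 of the lower calls. Without BIS3 replicate 2 the calls numbered 1940 (997 higher and 943 lower). With WT replicates 1 to 3 as the only controls they numbered 1383 (804 higher and 579 lower) and with WT replicates 4 to 6 alone 2148 (1138 higher and 1010 lower), and with at least 10 counts required in every library the 2-fold calls numbered 276. The balance of directions depends on the scaling: with library totals in place of TMM factors the median of all transcripts shifted by -0.245 on the log2 scale, and the calls became 3080, 597 higher and 2483 lower.

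Abundant transcripts were more often higher in BIS3. With the native transcripts divided into 5 groups by their WT level, 33.4% of the most abundant group (153 CPM and above) were higher and 13.4% lower, against 10.4% higher and 14.2% lower in the least abundant group (under 23.7 CPM). The median log2 fold change rose with each step of abundance, from -0.197 through -0.159, -0.051 and 0.025 to 0.147. These groups were formed on the WT values that also enter the fold change, and transcripts with few counts pass the test less readily. A measure free of scaling factors moved the same way. The 100 native transcripts most abundant in WT took 16.8% to 17.9% of the counts of each WT library and 19.2% to 21.3% in BIS3, and the strains did not overlap.

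**Figure D1:**
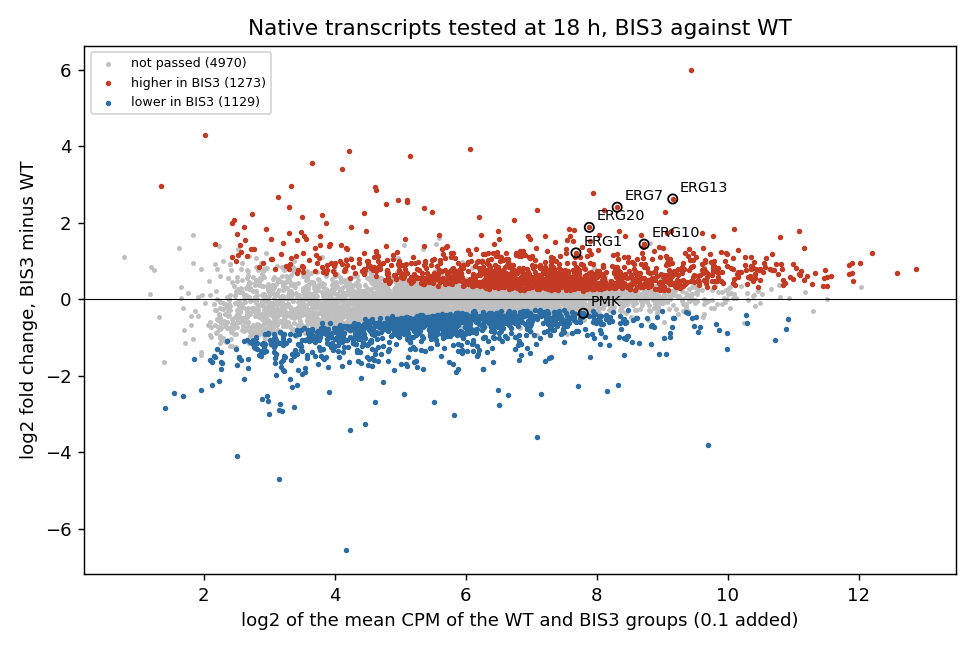
The log2 fold change of BIS3 over WT is plotted for each native transcript tested at 18 h against the log2 mean CPM of both groups, with calls in red (higher) and blue (lower) and 6 linked genes circled. The red points, 1273 transcripts, thicken toward the abundant side on the right, while the 1129 blue points are spread over the range of abundance.

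Most linked genes of the mevalonate, sterol and fatty acid pathways were higher in BIS3. Of the 17 linked genes, 14 were higher than in WT, 0 were lower and 3 did not pass (adjusted over all transcripts). The share of all transcripts that were higher was 17.3%, but that share depends on abundance. The lowest WT mean among the 17 was 50.6 CPM (MVD), in the middle of the 5 groups by WT level. From that group upward 13.2%, 19.6% and 33.4% of transcripts were higher, with median log2 fold changes of -0.051, 0.025 and 0.147. The median log2 fold change of the 17 was 0.69, beside -0.030 over all native transcripts. The BIS3 and WT libraries did not overlap, with BIS3 higher, for 11 of the 17, where 16.2% of all tested transcripts showed that separation. The 17 were listed with earlier results of these data known, so these shares are background and not a test of the list. Replicate 2 was the highest BIS3 library for 11 of the 17 (38.7% of all native transcripts). Without it 12 were higher and 1, PMK, was lower. With library totals 9 were called higher and 1, PMK, was called lower, and no linked gene changed sign.

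**Figure D2:**
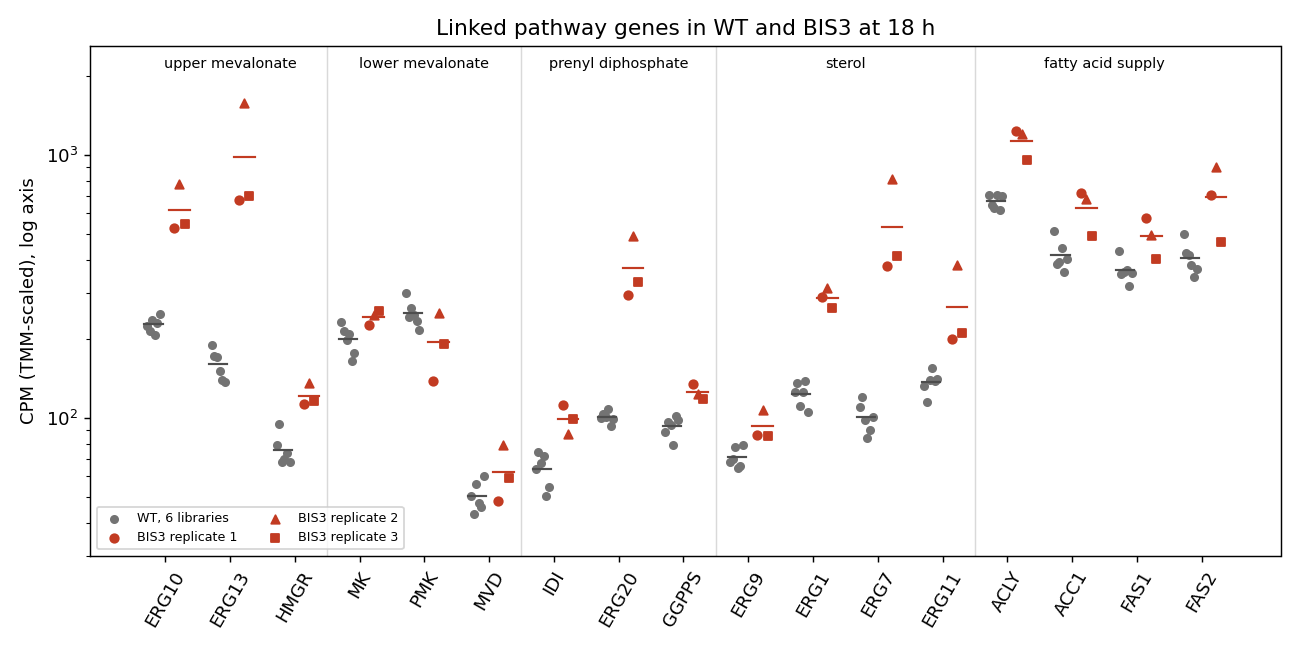
Each point is the level of a linked gene in 1 library at 18 h, in CPM on a log axis, with WT in grey, BIS3 in red with a symbol for each replicate, and bars at the group means. ERG13, ERG7, ERG20 and ERG10 show the widest gaps between the strains, with replicate 2 (triangles) on top, and PMK is the gene with its BIS3 mean below WT.

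The upper mevalonate genes condense acetyl-CoA into mevalonate, and 3 of 3 rose. ERG13 (transcript 12250, scaffold 2, 508841 to 511191, minus strand) encodes HMG-CoA synthase. It stood at 675, 1580 and 699 CPM in BIS3 replicates 1, 2 and 3, and at 137 to 190 (median 161) in WT. Every BIS3 library exceeded every WT library more than 3-fold, and replicate 2 held more than 2 times the level of the other BIS3 libraries. The fold was 6.17 (log2 2.63 ± 0.20 SE, edgeR adjusted p = 9.4e-09), and the log2 value without replicate 2 was 2.10. ERG10 (transcript 8806, scaffold 1, 734336 to 736325, plus strand), the acetoacetyl-CoA thiolase that begins the pathway, had 530, 777 and 549 CPM in BIS3 against 207 to 249 (median 227) in WT. The strains were again separate, by 2.72-fold (log2 1.45 ± 0.11, edgeR adjusted p = 1.1e-08). HMGR (transcript 9702, scaffold 10, 646514 to 651293, plus strand), the HMG-CoA reductase regarded as the main control step of the pathway in many organisms, changed less. It had 113, 136 and 116 CPM against 67.8 to 94.7 (median 71.7), a fold of 1.62 (log2 0.69 ± 0.12, edgeR adjusted p = 1.9e-04).

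The lower mevalonate genes phosphorylate mevalonate and decarboxylate it to isopentenyl diphosphate, and 0 of 3 passed the test. Mevalonate kinase (MK, transcript 8886, scaffold 1, 910913 to 912334, minus strand) had 226, 247 and 256 CPM in BIS3 and 165 to 233 in WT. The decarboxylase MVD (transcript 12038, scaffold 2, 11016 to 12700, minus strand) had 48.5, 79.3 and 59.2 CPM and 43.2 to 60.1 in WT. Both overlapped WT, with log2 values of 0.29 ± 0.16 (95% interval -0.04 to 0.63) and 0.30 ± 0.19 (-0.10 to 0.69). Phosphomevalonate kinase (PMK, transcript 8830, scaffold 1, 791953 to 794144, plus strand) had 138, 252 and 191 CPM against 217 to 299 (median 244). Here replicate 2 lay inside the WT range and the other BIS3 libraries below it. The log2 value was -0.36 ± 0.14 (edgeR adjusted p = 0.051), and it was -0.60 without replicate 2 (edgeR adjusted p = 0.0031) and -0.40 without WT replicate 6 (edgeR adjusted p = 0.042). PMK was also called lower with no low-count filter (-0.37, edgeR adjusted p = 0.048), with at least 10 counts in every library (-0.39, edgeR adjusted p = 0.034) and with library totals (-0.62, edgeR adjusted p = 0.0012). Its call therefore depends on the libraries, the filter and the scaling.

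Among the prenyl diphosphate genes 3 of 3 rose. ERG20 (transcript 13072, scaffold 3, 502452 to 503977, plus strand) encodes farnesyl diphosphate synthase, whose product is the substrate of BIS. It had 295, 492 and 330.5 CPM in BIS3 and 93.2 to 108 (median 100.5) in WT. The WT libraries were close together and BIS3 lay 3.69-fold above them (log2 1.88 ± 0.13, edgeR adjusted p = 1.8e-09). The isomerase IDI (transcript 16331, scaffold 8, 1175352 to 1176737, minus strand) and the geranylgeranyl diphosphate synthase GGPPS (transcript 16631, scaffold 9, 500801 to 502496, plus strand), a branch that leaves the farnesyl diphosphate pool toward other isoprenoids, changed by 1.57-fold (edgeR adjusted p = 0.0082) and 1.34-fold (edgeR adjusted p = 0.019). IDI had 112, 86.7 and 99.0 CPM against 50.4 to 74.2, and GGPPS 135, 124 and 118 against 79.1 to 102. GGPPS overlaps 2 entries on the opposite strand by 60 and 14 bases, and since the strand setting of the counting is not given in the sources used here, reads of the overlaps cannot be told apart. IDI and GGPPS both lost their call without BIS3 replicate 1 (log2 0.54 and 0.36), with library totals and with WT replicates 1 to 3 alone, and GGPPS also with WT replicates 4 to 6 alone (0.43).

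The sterol genes take farnesyl diphosphate on to ergosterol, and 4 of 4 rose, with no overlap between the strains. Squalene synthase ERG9 (transcript 16719, scaffold 9, 707140 to 708844, plus strand), which commits farnesyl diphosphate to sterols and so competes with BIS, changed least of them. It had 86.4, 107 and 85.7 CPM against 64.8 to 79.3 (log2 0.39 ± 0.11, edgeR adjusted p = 0.011). It did not pass without replicate 2 (0.27, edgeR adjusted p = 0.11), with library totals (0.14, edgeR adjusted p = 0.33) or with WT replicates 1 to 3 alone (0.37, edgeR adjusted p = 0.055). Lanosterol synthase ERG7 (transcript 9368, scaffold 1, 2080742 to 2084001, plus strand) had 380, 810 and 414 CPM in BIS3 and 84.1 to 120.5 (median 99.6) in WT. Replicate 2 was again far above the others, and the groups were 5.32-fold apart (log2 2.41 ± 0.18, edgeR adjusted p = 9.4e-09). An entry on the same strand shares 371 bases with ERG7 and was higher in BIS3 too (log2 2.39), and how reads of the shared stretch were divided is not given. Squalene epoxidase ERG1 (transcript 13857, scaffold 4, 540890 to 543054, minus strand) had 287.5, 311 and 262 CPM against 105 to 138, with replicate 2 close to the others, a fold of 2.32 (log2 1.22 ± 0.13, edgeR adjusted p = 1.4e-06). The lanosterol demethylase ERG11 (transcript 12971, scaffold 3, 271874 to 274192, minus strand) had 200.2, 381 and 211 CPM against 115 to 155 (log2 0.95 ± 0.15, edgeR adjusted p = 1.3e-04), and its log2 value without replicate 2 was 0.58.

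The genes that supply acetyl-CoA and fatty acids rose by less, 4 of 4, and 1 of them was free of overlap. ATP citrate lyase (ACLY, transcript 9854, scaffold 11, 80345 to 84761, minus strand), which makes cytosolic acetyl-CoA, was already abundant in WT at 619.6 to 705 CPM and had 1239, 1204 and 955 in BIS3 (log2 0.76 ± 0.12, edgeR adjusted p = 1.0e-04). Acetyl-CoA carboxylase ACC1 (transcript 8767, scaffold 1, 646250 to 653931, minus strand), which commits acetyl-CoA to fatty acids, had 718, 679 and 494 CPM against 358 to 512.5. The fatty acid synthase genes FAS1 (transcript 8798, scaffold 1, 717137 to 721125, minus strand) and FAS2 (transcript 8905, scaffold 1, 950698 to 960325, minus strand) had 579, 497 and 401 CPM and 706, 898 and 466 CPM, against 318 to 431 and 345 to 500.3 in WT. For these 3 genes replicate 3 lay inside the WT range. The folds were 1.52 for ACC1, 1.35 for FAS1 and 1.70 for FAS2. The call of FAS1 (log2 0.44, edgeR adjusted p = 0.038) was lost without BIS3 replicate 1 (0.29), BIS3 replicate 2 (0.43) or any of WT replicates 2 to 6 (0.40 to 0.44). With library totals neither ACC1 (0.36, edgeR adjusted p = 0.073) nor FAS1 (0.20, edgeR adjusted p = 0.37) passed, and FAS1 did not pass with either set of WT libraries alone (0.37 and 0.51).

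Next to its neighbours in the copy series, BIS3 differed from BIS14 in the same 4 linked genes that had changed most. By the test of the difference itself 213 transcripts (2.89%) differed between BIS3 and BIS14, 94 higher and 119 lower in BIS3. ERG13 was higher in BIS3 by 1.04 ± 0.24 on the log2 scale (edgeR adjusted p = 0.018), ERG7 by 1.01 ± 0.21 (edgeR adjusted p = 0.011), ERG20 by 0.82 ± 0.15 (edgeR adjusted p = 0.0029) and ERG10 by 0.53 ± 0.13 (edgeR adjusted p = 0.030). The other 13 linked genes did not pass, with differences of -0.20 to 0.49 and 95% intervals that together spanned -0.59 to 0.87. BIS3 and BIS14 are separate transformants, so copy number and clone cannot be told apart. This comparison is sensitive to its libraries. Without BIS3 replicate 2, ERG20 still passed (0.57, edgeR adjusted p = 0.014), whereas ERG13, ERG7 and ERG10 did not (0.51, 0.57 and 0.33, edgeR adjusted p = 0.095, 0.057 and 0.14). ERG13 also lost its call without BIS14 replicate 2 (1.08), and ERG10 without BIS14 replicate 2 or 3 (0.56 each), with library totals (0.39) and with all 36 libraries in 1 fit (0.56). Over all transcripts the count was 1174 without BIS14 replicate 1, 94 without BIS14 replicate 2, 128 without BIS14 replicate 3 and 136 without BIS3 replicate 3. With only these 2 groups in the fit it was 0 of 6932, with 531 at an unadjusted p under 0.05 (edgeR).

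GB2, which descends from BIS3, was higher than BIS3 in 9 of the 17 linked genes and lower in 1. Between BIS3 and GB2 2148 transcripts (29.1%) differed, 1066 higher and 1082 lower in BIS3. The 9 genes below GB2 were FAS2 (log2 -0.98), ERG13 (-0.78), ACLY (-0.76), MVD (-0.64), ACC1 (-0.58), HMGR (-0.54), ERG10 (-0.48), PMK (-0.47) and ERG9 (-0.38). MK was 1.11 ± 0.19 higher in BIS3 (edgeR adjusted p = 2.8e-04), with 110 to 115 CPM in GB2 and 226 to 256 in BIS3. ERG7, ERG20, ERG1, ERG11, IDI, GGPPS and FAS1 did not pass, with differences of -0.39 to 0.04 and intervals from -0.75 to 0.46 in all. Without BIS3 replicate 2 ERG7 (-0.42), ERG20 (-0.58) and ERG11 (-0.76) passed as well, each lower in BIS3 (edgeR adjusted p = 0.045, 8.5e-04 and 1.7e-04). Replicate 2 therefore decides whether these 3 genes are called. The calls of FAS2, ACLY, HMGR, ERG10 and MK stood whichever library was left out. Those of ERG13 (-0.60 and -0.61), MVD, PMK and ERG9 were lost without BIS3 replicate 1 and without replicate 3, that of ACC1 without BIS3 replicate 3 (-0.46), those of MVD, PMK and ERG9 without GB2 replicate 3, and that of PMK without GB2 replicate 2. The values of MVD were then -0.63 to -0.52, of PMK -0.48 to -0.30 and of ERG9 -0.35 to -0.31.

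**Figure D3:**
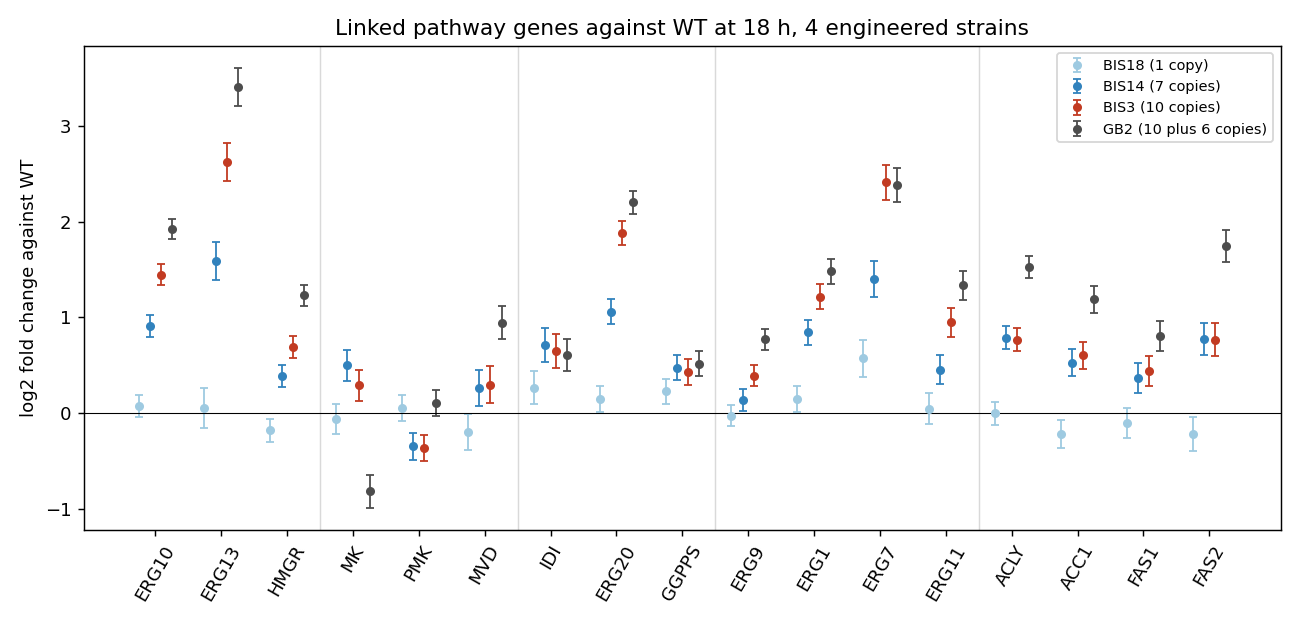
The log2 fold change against WT at 18 h is drawn for the 17 linked genes in BIS18, BIS14, BIS3 and GB2, with bars of 1 SE from the same fit, so all strains share the WT libraries. BIS3 lies between BIS14 and GB2 for ERG13 and ERG10, level with GB2 for ERG7 and close to BIS14 for ACLY, ACC1, FAS1 and FAS2.

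BIS3 was also set against WT, BIS14 and GB2 together. Of the 1275 transcripts higher than in WT, 85 were also higher than in BIS14 and 190 higher than in GB2, while 273 were lower than in GB2. Of the 7375 transcripts tested, those above WT, BIS14 and GB2 alike numbered 20, with log2 fold changes over WT of 0.31 to 0.99. On scaffold 3 lay 13 of the 20. That scaffold holds 695 of the 7375 transcripts tested and 163 of the 1066 that were higher in BIS3 than in GB2. On the lower side 15 transcripts stood below all 3 strains, none of them on scaffold 3 (log2 -1.61 to -0.49). No linked gene was among these 35. With each library of the 4 strains left out in turn the 20 became 9 to 108 and the 15 became 5 to 88. Both upper values arose without BIS14 replicate 1. The counts were 9 and 5 without BIS14 replicate 2, 14 and 5 without BIS14 replicate 3, 24 and 36 without BIS3 replicate 2, 9 and 9 without BIS3 replicate 3 and 12 and 17 without GB2 replicate 1. The sizes of both sets are therefore not firm. At 48 h 6 of the 20 and 2 of the 15 passed in the same direction, beside 457 higher and 381 lower among all 7890 transcripts tested there.

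Scaffold 3 as a whole stood slightly higher in BIS3. Its 695 tested transcripts held 179 (25.8%) higher and 62 (8.92%) lower calls, while on the other 17 scaffolds with at least 50 tested transcripts 9.55% to 22.6% were higher and 12.0% to 21.5% lower. Taken relative to the median of all native transcripts in the same library, which no scaling factor affects, the median of scaffold 3 was 0.157, 0.103 and 0.136 on the log2 scale in BIS3 replicates 1, 2 and 3. It was -0.023 to 0.016 in WT, 0.011 to 0.017 in BIS18, -0.029 to -0.020 in BIS14 and -0.051 to -0.044 in GB2. The BIS3 libraries thus lay above all others, GB2 included, although GB2 was made from BIS3. By this measure BIS3 and WT libraries did not overlap on 7 of 18 scaffolds, 3 higher and 4 lower in BIS3. Scaffold 3 had the highest difference of the 18, so the counts over its blocks that follow restate its rank and are no separate support. In blocks of about 50 neighbouring transcripts, the median log2 fold change over WT exceeded that of all native transcripts in 13 of 14 blocks of scaffold 3 (-0.045 to 0.289 relative to it) and in 53 of 128 blocks of the other scaffolds (-0.246 to 0.19). Without that reference the median of scaffold 3 was 0.113 higher in BIS3 than in WT (exact two-sided permutation test over 3 and 6 libraries, p = 0.024, the smallest this design can give, adjusted p = 0.054 over 18 scaffolds). By this test 0 of 18 scaffolds passed after adjustment and 11 had an unadjusted p under 0.05. Without replicate 2 the value was 0.128 and with library totals it was -0.115. ERG20 and ERG11 lie on scaffold 3. On scaffold 10 the difference was on the side of GB2: 146 of 335 transcripts were lower in BIS3 than in GB2 and 16 higher, with a median log2 difference of -0.43.

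**Figure D4:**
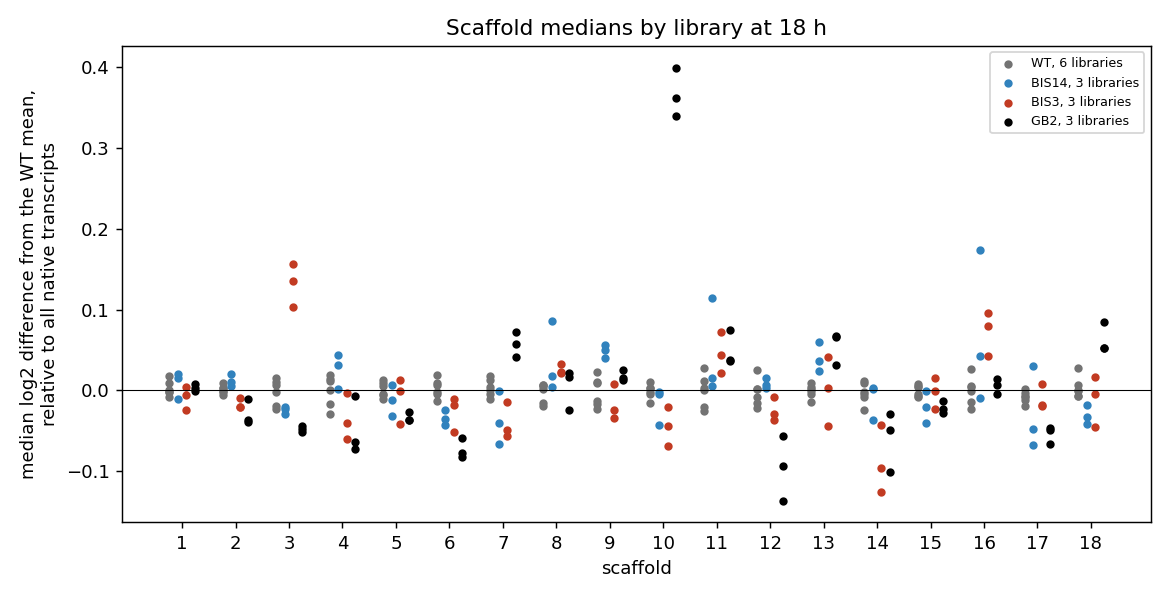
For each of 18 scaffolds a point shows the median log2 difference of 1 library from the WT mean at 18 h, relative to all native transcripts of that library, for WT, BIS14, BIS3 and GB2. The 3 BIS3 libraries stand at 0.103 to 0.157 on scaffold 3, above every other library there, and the 3 GB2 libraries stand out on scaffold 10.

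Over runs of 10 neighbouring tested transcripts, the highest median was 0.72 on the log2 scale, on scaffold 3 from 1156764 to 1172583, with 5 of the 10 called higher. GB2 reached 0.68 in the same run and BIS14 0.16. The lowest was -0.79 on scaffold 6 from 1461182 to 1490477, with 6 called lower and 2 higher, beside -0.84 in GB2 and -0.30 in BIS14. All 3 strains were set against the same WT libraries. These runs are the extremes of 7202 and were picked for their values.

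The largest native rise was that of transcript 10740 (scaffold 13, 452902 to 454246, plus strand), a gene the table does not name. It had 1189, 1600.0 and 1320.0 CPM in BIS3 and 18.8 to 29.2 in WT. From one of the weaker transcripts it became one of the stronger, 64.1-fold higher (log2 6.0 ± 0.15, edgeR adjusted p = 1.1e-17). Its log2 fold change over WT was 2.68 in BIS18, 4.58 in BIS14 and 6.65 in GB2, the order of the copy numbers, and BIS3 exceeded BIS14 by 1.42 ± 0.15 (edgeR adjusted p = 1.4e-05). The cassette holds a native promoter, and the handling of multiply mapped reads is not given. Whether cassette copies share sequence with this entry and added to its counts was not tested. The next transcript on the same strand begins 209 bases further on and is itself abundant, at 2421 CPM in WT and 3673 in BIS3 (log2 0.60 ± 0.13). The following entries, on the minus strand (456949 to 458914) and the plus strand (459012 to 460205), were higher too (log2 0.82 and 1.19, edgeR adjusted p = 1.1e-04 and 2.8e-04). The 3 entries before transcript 10740 did not pass (log2 -0.01, 0.36 and -1.11, edgeR adjusted p = 0.96, 0.050 and 0.076). The second native rise was transcript 13177 (scaffold 3, 759353 to 763599, plus strand), with 107, 173 and 99.8 CPM in BIS3 and 3.15 to 13.8 in WT. The groups were separate, at log2 3.92 ± 0.44 (edgeR adjusted p = 2.2e-06), but the BIS14 libraries spread from 12.5 to 96.0 CPM. Since Nat and BIS lead the list of rises, these native transcripts were chosen after their values were seen. A further riser, on scaffold 8 from 1213713 to 1217281, also chosen after its values were seen, behaved differently across strains. It had 23.8, 45.4 and 35.4 CPM in BIS3 and 0.631 to 4.07 in WT (log2 3.89 ± 0.30), and it was at 3.75 in BIS18, 3.92 in BIS14 and 4.49 in GB2. The difference of BIS3 from BIS18 was 0.14 (95% interval -0.35 to 0.63).

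The largest falls emptied transcripts that were modest in WT. Transcript 12545 (scaffold 2, 1236078 to 1237368, minus strand) had 1, 0 and 0 counts in the BIS3 libraries and 26.6 to 46.4 CPM in WT, where 334 counts were seen in all. The ratio of the pooled counts was 119.6-fold lower in BIS3 with an exact 95% counting interval of 21.3 to 4739 for the factor. BIS14 and BIS18 kept the transcript at 24.6 and 22.2 CPM, and GB2 had 0.680 to 2.35 CPM. The nearest 2 transcripts to its left fell as well, from 13.2 to 2.28 CPM (scaffold 2, 1233030 to 1233993, log2 -2.52 ± 0.41) and from 13.6 to 2.06 CPM (1234062 to 1235003, log2 -2.65 ± 0.51). The former was also lower than WT in BIS14 (log2 -1.54) and GB2 (-1.48). The latter was lower in GB2 (-1.57) and did not pass in BIS14 (0.33, edgeR adjusted p = 0.49). The next one to the left (1229345 to 1231059) had a log2 value of 0.01 (edgeR adjusted p = 0.97), and the first to the right (1239403 to 1240955) was higher in BIS3 (log2 0.44, edgeR adjusted p = 0.0082). Transcript 10158 (scaffold 11, 836200 to 837347, minus strand) had 1, 1 and 0 counts in BIS3 and 15.1 to 18.9 CPM in WT. Its pooled counts were 29.4-fold lower (8.0 to 245, exact 95% counting interval), BIS14 had 1.73 to 7.24 CPM and GB2 0 to 1.17. In all, 7 native transcripts that averaged 10 CPM or more in WT had no more than 3 counts in any BIS3 library. In 3 of the 7 every GB2 library also had at most 3 counts, and 5 of the 7 exceeded 3 counts in every BIS3 library at 48 h. No native transcript showed the opposite pattern, at most 3 counts in every WT library and 10 CPM or more in BIS3. That rule is stricter, since 6 WT libraries must meet it instead of 3, so the 7 and the 0 are not like counts.

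The differences between BIS3 and WT changed with culture time. In a fit of all 36 libraries 652 of 7890 transcripts (8.26%) had a BIS3 over WT ratio that differed between 18 h and 48 h, 322 toward higher and 330 toward lower ratios at 48 h. The 5 genes with the largest rise at 18 h, ERG13, ERG7, ERG20, ERG10 and ERG1, were the only linked genes among them, and in each the ratio was smaller at 48 h. ERG13 had 177.5 to 181.5 CPM in the 3 BIS3 libraries at 48 h and 42.8 to 152 (median 122) in WT. The libraries still did not overlap, but ERG13 no longer passed against WT (log2 0.62 ± 0.22, edgeR adjusted p = 0.064). ERG7 had 85.5 to 90.4 CPM against a median of 55.5, and its log2 ratio was 0.64 ± 0.17 (edgeR adjusted p = 0.015). The changes of the log2 ratio from 18 h to 48 h were -2.03 ± 0.32 for ERG13, -1.80 ± 0.24 for ERG7, -1.19 ± 0.22 for ERG10, -0.83 ± 0.20 for ERG1 and -0.81 ± 0.25 for ERG20. ERG20 was near the threshold (edgeR adjusted p = 0.039) and lost the call when any of 11 libraries was left out, most clearly BIS3 replicate 2 at 18 h (-0.55, edgeR adjusted p = 0.20). Without any of the other 10 it was -0.88 to -0.73. The other 4 genes kept their call whichever library was left out.

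The log2 ratios of the acetyl-CoA and fatty acid genes at 48 h were 0.89 ± 0.17 for ACC1, 0.97 ± 0.19 for FAS2, 0.69 ± 0.19 for ACLY and 0.64 ± 0.17 for FAS1, all 4 higher than WT, and none of the 4 passed the test of a change over time. Of all 17 linked genes 12 did not pass it, and the gene groups were not compared with each other by a test. Of the 17 linked genes 8 were higher at 48 h (ACLY, ACC1, FAS1, FAS2, HMGR, ERG20, ERG1 and ERG7) and 0 lower, beside 5.79% of all 7890 transcripts that were higher. WT replicate 2 at 48 h, the smallest library of the series at 657951 counts, stands apart in many of these genes. It had 42.8 CPM for ERG13 and 299 for PMK where the other WT libraries had 112 to 152 and 104 to 120.0. For ACLY, ACC1, FAS1 and FAS2 it was the lowest WT library, for ACLY at 55.4 CPM against 154.5 to 195.6. The 48 h ratios were not fitted again without it. Without it the count of changed ratios was 1389, and the 5 genes remained called. The count was 1109 with WT replicates 4 to 6 as the only controls and 364 with every library thinned to the depth of the smallest.

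**Figure D5:**
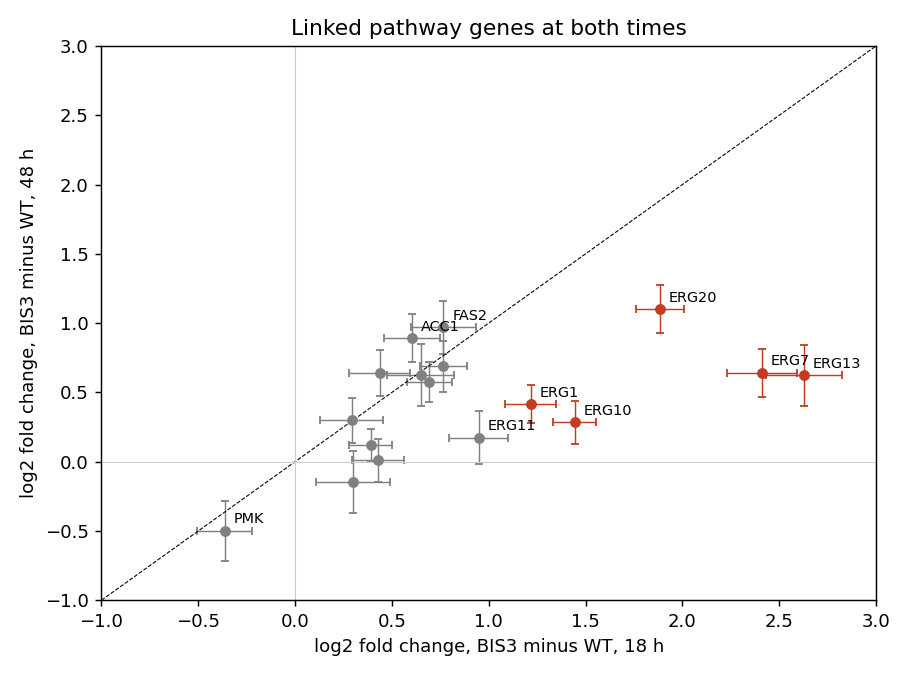
The log2 fold change of BIS3 over WT at 48 h is plotted against that at 18 h for the 17 linked genes, with bars of 1 SE, a dashed line of equality and the 5 genes whose change over time passed in red. The red genes, from ERG1 at 1.22 to ERG13 at 2.63 on the 18 h axis, lie below the line, while the fatty acid genes ACC1 and FAS2 lie on its upper side.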

How the data were processed

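RNA of each library was prepared by the authors with a TruSeq RNA kit and read on a MiSeq, and the reads were cleaned with BBTools, mapped with HISAT2 and assigned to transcripts with featureCounts. Tool versions, strand setting and handling of multiply mapped reads are not given in the sources used here. The deposited values are raw counts of 8493 entries (8490 native), with 0 sample columns unused. The 9 libraries compared were taken from the labels. Transcripts were filtered with filterByExpr, scaled by TMM and tested with edgeR 4.0.16 (R 4.3.3) in 1 fit of the 18 libraries of 18 h, or of all 36 for the change over time, at an adjusted p under 0.05. CPM are scaled by TMM library sizes, FPKM by total count and listed length. A count of 0 leaves up to 3 counts open. Differences of BIS3, BIS14, BIS18 and GB2 from WT share the WT libraries.

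Named genes were BIS, Nat, Hyg, the 17 linked genes and the 2 largest rises and falls among transcripts past the threshold with at least 10 CPM in BIS3 or WT and no overlap. Members and lists were chosen with earlier results of these data known. Within groups, pairs of libraries differed by 1.14 to 10.3 times counting noise (chi-square per degree of freedom). The closest were WT replicates 2 and 3, and each library was counted once, though this does not show that they were separate cultures. The tests were tested on simulated data. A name table of another strain matched 0 entries and was not used. The alternatives were RLE factors, library totals, other filters, thinning (seed 1), DESeq2 1.42.0, a replicate block, other sets of libraries and, chosen after seeing the data, scaffold medians relative to all native transcripts and the comparison of BIS3 with WT, BIS14 and GB2 together with each library left out.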

Additional observations from a re-analysis of the deposited data

Results flagged for a closer look

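The difference of BIS3 from WT changed between 18 h and 48 h in several named transcripts, by the interaction term of the fit of all 36 libraries. On the log2 scale (48 h minus 18 h) the change was -1.19 for ERG10, -2.03 for ERG13, -0.81 for ERG20, -0.83 for ERG1 and -1.80 for ERG7. It was -1.37 for transcript 10740 and -2.38 for transcript 13177, so the largest native rises were smaller at 48 h too, though both still passed there (log2 4.66 and 1.58). For transcripts 12545 and 10158 it was 5.25 and 5.46, fitted values that depend on the prior count because BIS3 had at most 1 count per library at 18 h. Neither passed against WT at 48 h (edgeR adjusted p = 0.28 and 0.065).

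Among the 6 WT libraries at 18 h, replicate 5 lay far from the others for transcript 10740, at 29.2 CPM against a median of 19.8 (19.75). About 1 in 20 groups is expected to be marked this way by chance.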

How the results depend on the processing

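Of 174 alternative values for counts and levels, 150 stayed within 1.5 times the reported count or within 1 SD of the level. With library totals the directions moved beyond this: the calls were 3080 (597 higher, 2483 lower) and the 2-fold calls 734 (112 higher, 622 lower). The others follow or stand beside their result, and the cause was not tested except where fewer libraries or transcripts entered the fit. The 2404 calls were 1383 with WT replicates 1 to 3 only. The 528 calls of at least 2-fold (227 higher, 301 lower) were 276 (148 higher, 128 lower) with at least 10 counts in every library. That filter left 6275 transcripts and removes those with few counts in any library, whether they rose or fell. The 652 changes over time were 364 after thinning and 1109 with WT replicates 4 to 6 only. The 213 differences from BIS14 were 122 with all 36 libraries in 1 fit and 0 with the 2 groups alone. The 8 scaffolds free of overlap (2 higher, 6 lower) were 17 with library totals, all lower, where the median of scaffold 3 turned to -0.115. BIS in CPM of totals was 14950 (FPKM 6092).

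With each library left out in turn, calls against WT were 1830 to 2306, 2-fold calls 483 to 581, linked genes 11 to 14, differences from GB2 1480 to 2351, from BIS14 94 to 1174, changes over time 456 to 1389, scaffolds 8 to 12 and BIS 5856 to 6555 FPKM. Differences from GB2 that did not pass changed sign for IDI (0.04, left out in turn -0.081 to 0.12, and -0.058 without GB2 replicate 2) and ERG7 (0.03, -0.42 without BIS3 replicate 2 to 0.19 without BIS3 replicate 1, and -0.0087 without GB2 replicate 2).

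No clear pairing by replicate number was seen: same-numbered BIS3 and WT libraries correlated at 0.100, 0.071 and -0.064 in their deviations, and 1 of 3 correlated best with its own number. Other pairs gave -0.127 to 0.094. With 3 same-numbered pairs this check cannot exclude a pairing. At 18 h replicate numbers 4 to 6 occur only in WT. With a block for each number those WT libraries do not inform the difference of BIS3 from WT. That fit therefore rests on WT replicates 1 to 3, which gave 1383 calls without the block. With the replicate block the calls were 1243 (730 higher, 513 lower) and the linked genes 8, with ACC1, FAS1, FAS2, IDI, ERG9 and GGPPS lost, and ERG7 against GB2 was -0.016. ERG13 (1.00, edgeR adjusted p = 0.052) and ERG10 (0.53, 0.082) against BIS14, BIS against GB2 (-0.52, 0.065) and the change of ERG20 over time (-0.81, 0.055) also lost their calls.

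For single named genes 920 of 1021 alternative values kept direction and side, 87 lost and 8 gained a call, and 6 changed sign. The 7375 transcripts tested leave 1118 entries too sparse for a statement at this depth.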
